A study of Mus musculus with 6 samples.

Results

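Genes that mark cells of non-neural origin were examined in dissected pieces of the ventral midbrain of the mouse embryo. The list held 42 genes in 4 classes, with 14 genes of mesenchyme, 12 of blood vessels, 8 of red cells and 8 of macrophages. Every probe set that the array annotation assigns to exactly 1 of these gene symbols was taken. This gave 75 probe sets for 41 genes, out of 34945 probe sets with 1 symbol for 18193 genes. The red cell gene Ahsp was not analysed here, which left 7 red cell genes. The tissues compared were the midbrain floor plate and, next to it without overlap, the ventral lateral region, from C57BL/6 embryos of mixed sex at embryonic day 10.5. Each region had 3 samples, and every sample combined tissue of 6 embryos. RNA of each sample (5 ng) was amplified, labelled with biotin and hybridised to 1 array. The labels do not say whether the samples of the 2 regions came from the same embryos. The p-values rest on the spread among the samples alone, which may be technical.

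The neural tube of this stage is a folded sheet of neuroepithelium, with the floor plate at its ventral midline. It is wrapped by head mesenchyme that derives from neural crest and mesoderm. Vessels of the perineural plexus sprout into the sheet, primitive red cells made in the yolk sac circulate in them, and the first macrophages, also of yolk sac origin, enter the tissue as precursors of microglia. A hand-dissected piece can hold all of these cells beside neuroepithelium.

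In the deposited table each probe set is centred on its median, so that 0 is the middle of the 6 arrays. Such values hold no level, and neither the presence of a cell type nor its share of a piece can be read from them. No source states the log base or the direction, and a log2 scale on which more RNA gives a higher value was assumed. In bulk tissue, fewer cells of a type and less RNA per cell cannot be told apart. The labels of the regions were borne out by genes that define them: Corin, Foxa2 and Lmx1a, genes of the midbrain floor plate, were higher in floor plate by 6.36, 1.76 and 3.71 on the log2 scale. Gad1 (differences of -4.56 and -1.43 on its 2 probe sets) and Nkx2-2 (-2.11), genes of the ventral lateral neurons and progenitors, were lower there. Each of these 6 probe sets passed the test in limma (Benjamini-Hochberg adjusted p of 6.04e-05 to 0.0181).

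The 4 classes were scored apart. A gene's value on an array was the mean of its probe sets, and a class score was the median over the genes of the class. The mesenchyme score was -0.14, 0.21 and 0.05 on the 3 floor plate arrays, against -0.23, 0.05 and -0.10 on the 3 ventral lateral arrays. The vessel score was -0.15, 0.04 and -0.10 in floor plate, against -0.03, 0.16 and 0.10 in ventral lateral samples. The red cell score was -0.06, 0.19 and -0.05 in floor plate, against -0.06, 0.23 and 0.02 in ventral lateral samples. The macrophage score was -0.05, -0.13 and 0.17 in floor plate, against 0.07, -0.08 and 0.08 in ventral lateral samples. The regions overlapped in every class. Set against the ventral lateral sample of the same number, each floor plate sample had a higher mesenchyme score and a lower vessel score. For red cells each was lower, though nearly equal on replicate 1, and for macrophages the direction differed between numbers. The labels do not say that equal numbers pair the samples, and the SEs given next take the samples as unpaired. The difference of the scores, floor plate minus ventral lateral, was 0.14 (SE 0.13) for mesenchyme, -0.15 (SE 0.08) for vessels, -0.04 (SE 0.12) for red cells and -0.02 (SE 0.10) for macrophages, each with n = 3 per region. Leaving out 1 array moved the mesenchyme difference to 0.05 without floor plate replicate 2, 0.07 without ventral lateral replicate 1, 0.21 without ventral lateral replicate 2 and 0.23 without floor plate replicate 1. It turned the sign for red cells (up to 0.05, without ventral lateral replicate 2) and for macrophages (up to 0.04, without floor plate replicate 2). No p was computed for a score, since the members were chosen with earlier results of these data known. The vessel score was the one whose difference was larger than its SD within a region (0.10 in both regions).

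**Figure D1:**
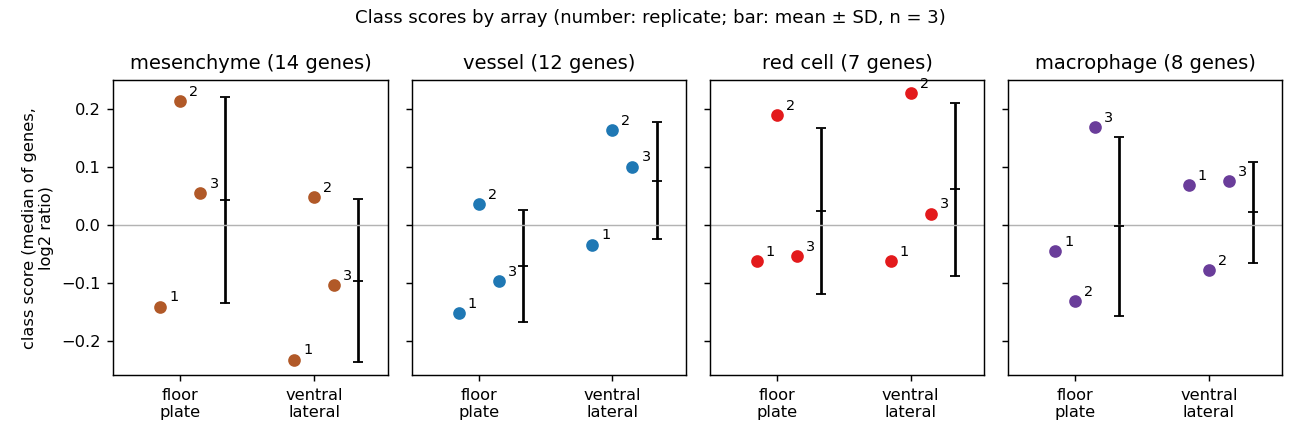
Class score of each array (y axis, log2 ratio) in floor plate and ventral lateral samples, with the replicate number beside each point and the mean with its SD (n = 3) as a bar. The regions overlap in all 4 classes, and the sample numbered 2 has the highest score of its region for mesenchyme, vessels and red cells and the lowest for macrophages.

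Single genes were tested in a limma fit over all 45037 probe sets that are not controls, with p-values adjusted over all of them and a threshold of 0.05. Of the 75 member probe sets 3 were higher in floor plate, against 2.7% of all probe sets. Lower in floor plate was 1 member probe set, against 2.01% of all. In either direction this is 5.33% of the members, against 4.71% of all probe sets, and so near the background. The 3 floor plate values and the 3 ventral lateral values did not overlap for 13 of the 75 (17.3%), against 22.4% of all probe sets. These were 6 higher and 7 lower in floor plate, against 11.5% and 11.0% of all. With 1 value per gene 4 of 41 members passed, against 8.13% of all genes by the mean of their probe sets and 7.8% by the probe set of largest variance. The median difference over the members was -0.04, against -0.0040 over all probe sets. For 65 of the 75 the difference was under 0.5 in size. The 4 probe sets that passed belong to Twist1, Postn, Snai2 and Cldn5, of which the first 3 are mesenchyme genes and the last a vessel gene.

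**Figure D2:**
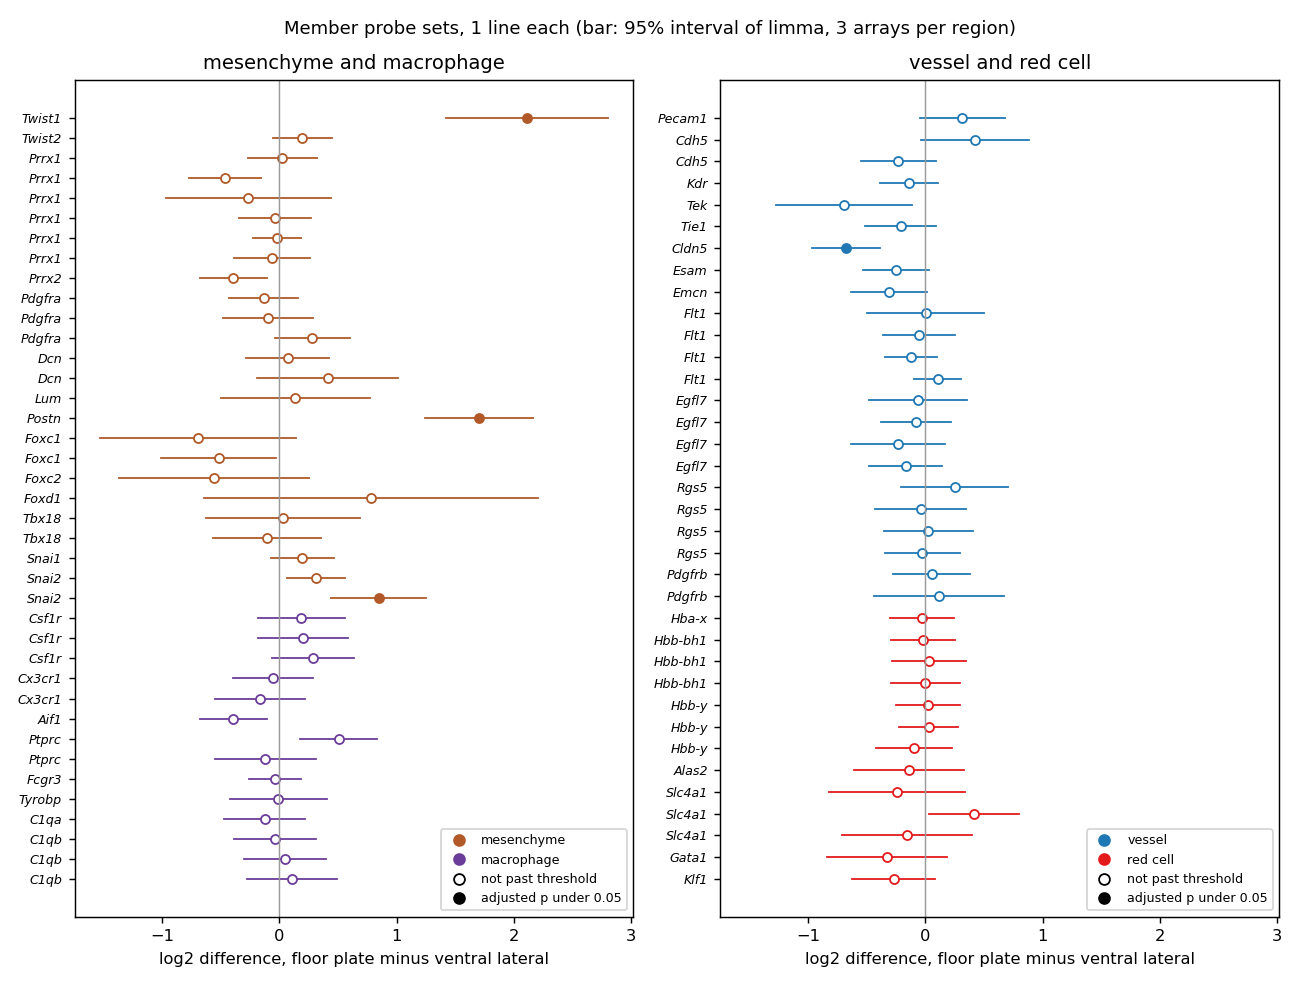
Difference between the regions (x axis, log2, floor plate minus ventral lateral) for each member probe set, with its 95% interval from limma, coloured by class. Filled points passed the threshold: Twist1 (2.11), Postn (1.70) and Snai2 (0.85) to the right, and Cldn5 (-0.68) to the left.

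Among the mesenchyme genes, Twist1, which encodes a basic helix-loop-helix factor of cranial mesenchyme and neural crest, differed most. Its log2 value was 0.80, 0.80 and 0.66 in floor plate, against -2.01, -0.66 and -1.39 in ventral lateral samples. The floor plate arrays lay within 0.14 of each other and all above the ventral lateral arrays, which spread over 1.35. Twist1 had a floor plate mean of 0.75 ± 0.08 and a ventral lateral mean of -1.36 ± 0.68 (SD, n = 3 each), which is 4.32-fold higher in floor plate, with a log2 difference of 2.11 (SE 0.30, limma adjusted p = 0.00724). Its close relative Twist2 had a difference of 0.19 that did not pass.

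Postn encodes periostin, a matrix protein secreted by connective tissue cells. Its log2 value was 0.68, 0.93 and 0.54 in floor plate, against -1.19, -0.54 and -1.22 in ventral lateral samples. The groups did not overlap. Postn had a floor plate mean of 0.72 ± 0.19 and a ventral lateral mean of -0.98 ± 0.38 (SD, n = 3 each), a 3.26-fold higher value in floor plate, with a log2 difference of 1.70 (SE 0.20, limma adjusted p = 0.00331).

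Snai2 encodes a zinc finger repressor of epithelial genes that acts in migrating neural crest. Its probe set that passed had log2 values of 0.30, 0.18 and 0.61 in floor plate, against -0.75, -0.18 and -0.51 in ventral lateral samples, a difference of 0.85 (SE 0.17, limma adjusted p = 0.036). The other probe set had 0.34, 0.06 and 0.22 in floor plate, against -0.06, -0.06 and -0.18 in ventral lateral samples, a difference of 0.31 that did not pass (adjusted p = 0.191). The groups were apart on both. The first of these probe sets is of a type that may cross-hybridise, and its call was lost when any 1 of the 3 floor plate arrays was left out, or ventral lateral replicate 1 or 3 (0.0529 to 0.111). The call was also lost with array weights (0.0541) and with the replicate number as a block (0.058). The related gene Snai1 had a difference of 0.20.

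The other mesenchyme factors did not pass the test. Foxc1, encoding a forkhead factor of periocular mesenchyme and meninges, had differences of -0.70 and -0.52 on its 2 probe sets. On the first it had -1.20, 0.31 and -0.93 in floor plate, against -0.14, 0.14 and 0.27 in ventral lateral samples, so that floor plate replicate 2 lay above the other 2 and above every ventral lateral array. Without that array the difference was -1.16 and passed (adjusted p = 0.0144). Foxc2, its close relative, had a difference of -0.56. Foxd1, a forkhead gene of stromal cells that is also expressed in the embryonic forebrain, had -0.15, 0.54 and 0.15 in floor plate, against -1.98, 0.83 and -0.66 in ventral lateral samples, and is given here because its values were seen to spread widely. Its range of 2.81 among ventral lateral samples was wider than the difference of 0.78 between the regions (SE 0.61). Differences were between -0.47 and 0.02 on the 6 probe sets of the homeobox gene Prrx1, -0.39 for its relative Prrx2, and 0.03 and -0.10 for the T-box gene Tbx18.

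Receptor and matrix genes of connective tissue other than Postn did not pass either. Pdgfra, the receptor by which mesenchyme responds to platelet-derived growth factor A, had differences of -0.14, -0.10 and 0.28 on its 3 probe sets. Those of Dcn, encoding the collagen-binding proteoglycan decorin, were 0.07 and 0.41, and the single one of Lum, encoding lumican of the same family, was 0.14. Dcn on its more variable probe set had -0.33, 0.52 and 0.67 in floor plate, against -0.38, 0.04 and -0.04 in ventral lateral samples, with overlap.

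Of the vessel genes, Cldn5, which encodes the claudin that seals endothelial tight junctions, was the member that passed. Its log2 value was -0.46, -0.21 and -0.46 in floor plate, against 0.49, 0.21 and 0.21 in ventral lateral samples. All floor plate arrays lay below all ventral lateral arrays. Cldn5 had a floor plate mean of -0.38 ± 0.15 and a ventral lateral mean of 0.30 ± 0.16 (SD, n = 3 each), 1.60-fold lower in floor plate, with a log2 difference of -0.68 (SE 0.12, limma adjusted p = 0.0227). The call was lost when replicate 1 or 3 of either region was left out (adjusted p of 0.0559 to 0.0849), with the replicate number as a block (0.0533) and without both samples numbered 2 (0.0599).

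The other endothelial genes were between -0.70 and 0.42. Tek, the angiopoietin receptor, had a difference close to that of Cldn5 with a wider spread, at -0.93, -0.00 and -0.47 in floor plate, against 0.00, 0.58 and 0.10 in ventral lateral samples (difference -0.70, SE 0.25, adjusted p = 0.207). It passed with the replicate number as a block (adjusted p = 0.0361). Tie1, its orphan relative, was at -0.21, and the growth factor receptor gene Kdr, which marks endothelium from its origin, at -0.14. The adhesion genes Esam and Pecam1 were at -0.25 and 0.32, and the sialomucin gene Emcn at -0.31. The 2 probe sets of Cdh5, encoding vascular endothelial cadherin, went opposite ways, at 0.42 and -0.23. The 4 probe sets of Flt1, encoding a decoy receptor for vascular endothelial growth factor, were between -0.12 and 0.10, and the 4 of the secreted factor gene Egfl7 between -0.24 and -0.06. The mural cell genes Rgs5, a regulator of G protein signalling in pericytes, and Pdgfrb, the receptor that recruits pericytes, were between -0.04 and 0.25 on their 6 probe sets, and the mural score overlapped between the regions.

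Red cell genes differed little between the regions, and none passed the test (0 of 13 in limma, with 1 at an unadjusted p under 0.05, against 16.5% of all probe sets). The 3 embryonic globin genes are Hba-x, the alpha-type globin of primitive red cells, and the beta-type globins Hbb-bh1 and Hbb-y. Hba-x had -0.02, 0.19 and -0.05 in floor plate, against -0.05, 0.23 and 0.02 in ventral lateral samples. The difference was -0.03 with a 95% interval of -0.30 to 0.25. Over the 7 globin probe sets the differences lay between -0.10 and 0.03. Alas2, which makes the first enzyme of heme synthesis in red cells, had 0.01, 0.33 and -0.40 in floor plate, against -0.05, 0.40 and -0.01 in ventral lateral samples. The differences were -0.14 for Alas2, -0.33 for the erythroid factor gene Gata1 and -0.27 for Klf1, encoding the factor that binds CACCC boxes of globin promoters. The anion exchanger gene Slc4a1 had -0.24, 0.41 and -0.16 on its 3 probe sets, so that they disagreed in sign.

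What the red cell member probe sets shared was their order among arrays. On 12 of the 13 the sample numbered 2 was the highest of its region in floor plate and in ventral lateral tissue, against 10.3% of all probe sets. The exception was a probe set of Slc4a1, which had -0.02, 0.17 and 0.37 in floor plate, against -0.20, -0.53 and 0.02 in ventral lateral samples. This was also the probe set with the positive difference of 0.41. Taken per gene, all 7 red cell genes had this order, against 9.38% of all genes. Hbb-y, for example, was at 0.12, 0.12 and 0.23 on floor plate replicate 2 and at 0.11, 0.09 and 0.23 on ventral lateral replicate 2, with the other 4 arrays between -0.20 and 0.06. Of the 13 probe sets 7 were of the 3 embryonic globin genes, and all 7 had this order. Some probe sets of Hbb-bh1, Hbb-y and Slc4a1 are of the type that may cross-hybridise, and 9 of the 13 remain without that type. The 13 may therefore not be separate readings. This count was not planned before the data were seen. In a list of further red cell genes, which were not members, 5 of 26 probe sets had it (19.2%).

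For the red cell genes that RefSeq's promoter table (GRCm38.p6) holds, 5 of 7, the stretch of 250 bases before the start site is shown. Capitals mark GATAA, the core bound by GATA factors, and CACCC, the box bound by Klf1, on either strand, so that TTATC and GGGTG are the same motifs read from the other strand. Overlapping matches share letters.
Hba-x (chr11:32276350-32276599, plus strand): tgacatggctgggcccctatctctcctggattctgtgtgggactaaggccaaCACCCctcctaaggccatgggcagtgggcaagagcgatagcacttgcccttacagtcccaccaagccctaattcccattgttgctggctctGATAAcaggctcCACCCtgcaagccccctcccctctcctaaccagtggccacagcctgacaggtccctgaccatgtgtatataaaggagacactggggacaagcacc
Hbb-y (chr7:103853208-103853457, minus strand): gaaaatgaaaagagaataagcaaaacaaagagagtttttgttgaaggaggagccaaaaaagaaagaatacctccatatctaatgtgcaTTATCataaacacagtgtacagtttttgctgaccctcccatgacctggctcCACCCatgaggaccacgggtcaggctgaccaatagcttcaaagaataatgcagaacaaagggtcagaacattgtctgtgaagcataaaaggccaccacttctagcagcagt
Alas2 (chrX:150547167-150547416, plus strand): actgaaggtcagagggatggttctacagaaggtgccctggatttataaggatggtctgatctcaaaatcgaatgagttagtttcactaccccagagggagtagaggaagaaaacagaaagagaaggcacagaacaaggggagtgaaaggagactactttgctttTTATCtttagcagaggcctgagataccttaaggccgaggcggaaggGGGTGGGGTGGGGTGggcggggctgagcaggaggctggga
Gata1 (chrX:7967911-7968160, minus strand): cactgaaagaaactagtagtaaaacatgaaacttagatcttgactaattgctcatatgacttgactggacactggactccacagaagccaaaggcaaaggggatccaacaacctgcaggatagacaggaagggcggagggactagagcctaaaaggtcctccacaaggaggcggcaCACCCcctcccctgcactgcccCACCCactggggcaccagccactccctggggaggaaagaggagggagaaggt
Klf1 (chr8:84901732-84901981, plus strand): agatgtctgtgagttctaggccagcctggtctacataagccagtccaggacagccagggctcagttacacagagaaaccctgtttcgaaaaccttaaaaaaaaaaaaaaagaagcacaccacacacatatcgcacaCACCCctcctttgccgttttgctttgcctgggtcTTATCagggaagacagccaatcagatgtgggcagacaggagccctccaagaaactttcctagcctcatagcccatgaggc
GATAA occurred in 4 of these 5 stretches and CACCC in all 5, against 22.6% and 52.0% of 32851 stretches of the same length in the table. The table held 33 stretches for 28 of the 41 members, and in the 11 of mesenchyme genes GATAA occurred in 1 and CACCC in 6. In the 10 of vessel genes GATAA occurred in 2 and CACCC in 6, and in the 7 of macrophage genes in 1 and 3. These matches describe letters and do not show that a factor binds. Their part in the order of the arrays was not tested.

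No macrophage gene passed the test (0 of 14 probe sets in limma, with 2 at an unadjusted p under 0.05, against 16.5% of all probe sets). Aif1, encoding a calcium-binding protein of macrophages and microglia, had -0.11, -0.35 and -0.10 in floor plate, against 0.13, 0.38 and 0.10 in ventral lateral samples. Ptprc, the leukocyte phosphatase CD45, had on its first probe set 0.17, 0.06 and 0.23 in floor plate, against -0.49, -0.06 and -0.51 in ventral lateral samples. The groups were apart for both, in opposite directions, with differences of -0.39 (adjusted p = 0.144) and 0.51 (adjusted p = 0.105). The second Ptprc probe set was at -0.12. Without ventral lateral replicate 2 the first Ptprc probe set passed (difference 0.65, adjusted p = 0.0305). Csf1r, the receptor that macrophages need for survival, was between 0.19 and 0.29 on its 3 probe sets. The chemokine receptor gene Cx3cr1 was at -0.06 and -0.17. The Fc receptor gene Fcgr3 was at -0.04 and Tyrobp, encoding a signalling adaptor of myeloid receptors, at -0.01. The complement genes C1qa and C1qb were at -0.12 and between -0.04 and 0.11.

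The order of arrays seen in red cell genes was less common in the other classes. The sample numbered 2 was highest in both regions on 9 of 25 mesenchyme probe sets (36.0%), on 8 of 23 vessel probe sets (34.8%) and on 0 of 14 macrophage probe sets, against 10.3% of all. In mesenchyme these were single probe sets of Twist2, Prrx1, Lum, Postn, Foxc1, Foxc2, Foxd1, Tbx18 and Snai1. In vessels they were those of Pecam1, Kdr, Tek and Esam, 2 of Egfl7 and both of Pdgfrb. In a list of further mesenchyme genes, which were not members, 11 of 49 probe sets had this order (22.4%). Both probe sets of the collagen genes Col1a1 and Col3a1 and 2 of 3 of Col1a2 were among these, and none of the 3 of Col5a1. Col1a1 had on its first probe set -0.27, 0.63 and -0.12 in floor plate, against -0.31, 0.78 and 0.12 in ventral lateral samples. Col3a1 had on one probe set -0.25, 1.24 and -0.02 in floor plate, against -0.32, 1.12 and 0.02 in ventral lateral samples. These collagen genes are named because their values had been seen. Further macrophage genes had the order on 3 of 32 probe sets (9.4%), and neural crest genes on 7 of 21 (33.3%). For macrophages the counts of members and of further genes are both near the share of all probe sets. The labels name no batch, and the part of dissection or of amplification in this order was not tested. Without both samples numbered 2 the score differences were 0.12 for mesenchyme, -0.16 for vessels, -0.04 for red cells and -0.01 for macrophages.

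**Figure D3:**
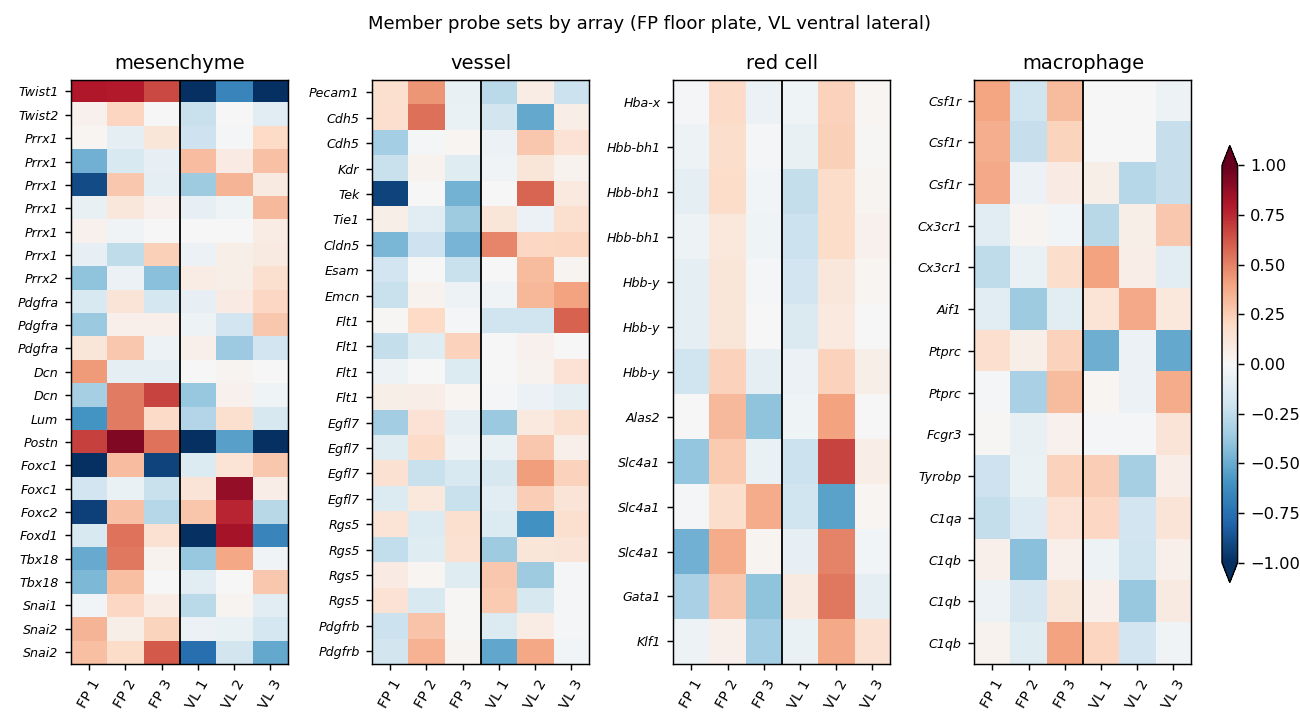
Log2 ratio of every member probe set (rows) on each array (columns) to its median over the 6 arrays, with floor plate (FP) left of ventral lateral (VL) samples and colours ending at -1 and 1. Red cell rows are red on FP 2 and VL 2 apart from 1 Slc4a1 row that is blue on VL 2, and Twist1 and Postn are red on all FP and blue on all VL arrays.

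Members were then set against their own class, by taking from each gene's value on an array the median of the other genes of its class. Twist1 and Postn departed by at least 1 on the log2 scale with the regions apart. Twist1 relative to the other mesenchyme genes was at 0.95, 0.59 and 0.63 in floor plate, against -1.80, -0.72 and -1.29 in ventral lateral samples, a departure of 1.99. Postn was at 0.83, 0.72 and 0.51 in floor plate, against -0.97, -0.60 and -1.11 in ventral lateral samples, a departure of 1.58. The exact two-sided permutation p was 0.1 for each, the smallest that 3 samples against 3 allow. The share of other genes that depart so from the mesenchyme score is 2.77%. No vessel, red cell or macrophage gene did so, against 3.07%, 2.85% and 2.82% of other genes set against these scores.

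Smaller departures with the regions apart were seen for 10 further genes. In mesenchyme Snai2 departed by 0.45, Prrx1 by -0.30, Prrx2 by -0.55 and Foxc1 by -0.77. Thus 6 of 14 genes were apart in all, 3 in each direction, against 17.7% of other genes set against the same score. Departures on both sides are built into a comparison with the class median, so the directions are no result of their own. In vessels Pecam1 departed by 0.50, Cdh5 by 0.28, Tek by -0.58 and Cldn5 by -0.57, or 4 of 12 against 27.3%, which is near the background. The value of Cdh5 averages 2 probe sets of opposite sign. Csf1r departed by 0.28 and Aif1 by -0.41 in macrophages, or 2 of 8 against 16.4%. No red cell gene was apart from its class (0 of 7, against 13.8%). Each of these had an exact permutation p of 0.1, the smallest possible, which cannot pass a threshold of 0.05.

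**Figure D4:**
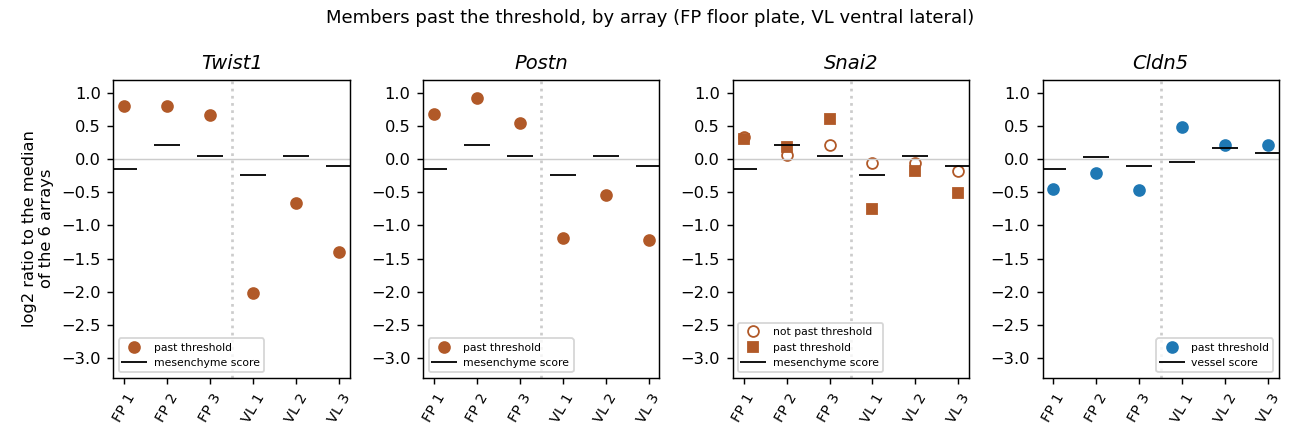
Log2 ratio (y axis) of Twist1, Postn, Snai2 and Cldn5 on the 3 floor plate (FP) and 3 ventral lateral (VL) arrays, with the score of their class as a black dash. Filled symbols are probe sets past the threshold, and the open circles of Snai2 are its probe set with a difference of 0.31. Twist1 and Postn lie above the dash on every FP array and below it on every VL array.

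Other genes of the same cell types were read from further lists. Of 49 probe sets for 20 further mesenchyme genes 6 were higher in floor plate and 0 lower (limma), against 2.7% and 2.01% of all probe sets, with a median difference of 0.08. This is 12.2% higher, and 16 of the 49 had an unadjusted p under 0.05 (32.7%, against 16.5% of all probe sets). These were Msx2 (2.43), a homeobox gene also expressed in neural tissue, both probe sets of the collagen cross-linking enzyme gene Lox that passed (2.21 each), Col6a3 (1.49) and 2 of Col5a1 (0.80 and 0.64). Lox had on its first probe set 0.64, 0.79 and 2.05 in floor plate, against -1.31, -0.64 and -1.20 in ventral lateral samples. The other probe set of Msx2 was at 0.61 and did not pass. The collagen genes Col1a1, Col1a2 and Col3a1 did not pass on any probe set, with differences between -0.32 and 0.05. Every mesenchyme probe set past the threshold in the fit over all 6 arrays was thus higher in floor plate. Higher in floor plate with the regions apart were, among others, Twist1, Postn, Col6a3 and 2 of 3 Lox probe sets. Lower with the regions apart, though none passed, were Prrx2 (-0.39) and single probe sets of Prrx1 (-0.47), Foxc1 (-0.52) and Ebf1 (-0.56). So were Zeb1 probe sets at -0.26, -0.30 and -0.75. Col1a1, Col1a2, Col3a1, Lum and Tbx18 overlapped. The regions were apart on 7 of the 25 mesenchyme member probe sets (28%), 4 higher and 3 lower. Of all probe sets 22.4% were apart, so this is near the background, and the directions of probe sets that did not pass are description only.

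Of 46 probe sets for 25 further endothelial genes 1 was lower in floor plate, that of the adhesion gene Icam2 (-0.49, adjusted p = 0.0393), with a median difference of -0.06. This is 2.17% of the list, against 2.01% of all probe sets lower in floor plate. Of the 46 probe sets 16 had the sample numbered 2 highest in both regions (34.8%, against 10.3% of all). None of 18 pericyte probe sets passed in limma, with 3 at an unadjusted p under 0.05 (16.7%, against 16.5% of all). Of 26 further red cell probe sets 1 was lower (3.85%, against 2.01% of all), that of Tal1, at -2.42, -1.81 and -1.73 in floor plate, against 2.49, 1.73 and 2.08 in ventral lateral samples (difference -4.09, adjusted p = 0.000239). Tal1 is a basic helix-loop-helix gene of blood formation that midbrain GABAergic neurons also use. The median of that list was -0.13, and 5 of its probe sets had the sample numbered 2 highest in both regions (19.2%, against 10.3% of all). None of 32 further macrophage probe sets passed in limma, with 4 at an unadjusted p under 0.05 (12.5%, against 16.5% of all).

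Markers of other cells that the pieces could hold were read the same way. Of 21 neural crest probe sets 4 were lower (19.0%, against 2.01% of all), 3 of Tfap2a (-3.95, -2.71 and -2.21) and 1 of Ednrb (-0.74), both also expressed in neural tissue. Sox10 and Foxd3, which define crest cells, were between -0.25 and 0.12 and did not pass. None of 18 surface epithelium probe sets and none of 10 cranial muscle probe sets passed in limma. At an unadjusted p under 0.05 were 3 (16.7%) and 2 (20.0%) of these, against 16.5% of all. Neural genes were lower in floor plate for 5 of 23 neuroepithelial (21.7%) and 7 of 31 pan-neuronal probe sets (22.6%), against 2.01% of all. The neuroepithelial ones were of Pax6 (-3.92, -1.99 and -1.79), Sox1 (-2.83) and Sox3 (-0.98). The other probe sets of these genes did not pass, at -0.29 and -0.11 for Pax6, -0.29 for Sox1 and -0.34 for Sox3. On the same list Sox2 (0.30), Nes (0.09 to 0.12) and Vim (0.01 to 0.11) were not lower and did not pass. Hes5 (-0.23 and -0.19) and Fabp7 (-0.22) did not pass either. On the pan-neuronal list Elavl4 (0.02 to 0.05) was not lower, and the Map2 probe sets (-0.46 to 0.19) differed in sign. The pan-neuronal score was -0.33, -0.10 and -0.27 in floor plate, against 0.44, 0.27 and 0.03 in ventral lateral samples, with the regions apart. Its part in the differences of the members was not tested.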

How the data were processed

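Expression was measured on 6 Affymetrix arrays, 3 of floor plate and 3 of ventral lateral midbrain. Per the submitters' processing notes the authors used RMA, with no version named. The deposited log2 values are centred: 100% of probe sets had a median within 1e-05 of 0. The base and direction are assumed. Array medians were -0.0030 to 0.0045, and precision is limited by how few arrays there are (median SE of a difference 0.127).

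Probe sets were named with GEO's platform annotation: 34945 had 1 symbol, 932 several and 9160 none, and 64 controls were left out. Older symbols in the lists were matched through RefSeq synonyms. Floor plate was set over ventral lateral tissue in limma 3.58.1 (lmFit, eBayes; R 4.3.3) over 45037 probe sets, with Benjamini-Hochberg adjustment and a threshold of 0.05, and the fit was tested on simulated data. Class scores, departures and exact permutation tests used Python 3.11.15 with pandas 2.3.3, numpy 2.4.6 and matplotlib 3.10.9.

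The members and lists were chosen with earlier results of these data known. Values on every array were given for members past the threshold, members departing from their class by at least 1, and up to 2 examples per class. Of each further list up to 4 genes past the threshold were named. Other genes given by array were chosen after their values were seen. Alternatives were other scalings, probe set choices, variance models, thresholds, a replicate block and leaving out samples.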

Additional observations from a re-analysis of the deposited data

How the results depend on the processing

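Twist1 and Postn passed in all 15 alternatives run for each, at log2 differences of 1.78 to 2.46 (adjusted p of 0.00107 to 0.043) and 1.59 to 1.92 (0.000978 to 0.0218). Leaving out 1 sample gave 2 to 5 member probe sets past the threshold in all, 2 to 3 in mesenchyme, 0 to 1 in vessels, 0 in red cells and 0 to 1 in macrophages. The total was 2 without floor plate replicate 1 or 3 or ventral lateral replicate 1 or 3, in fits with fewer samples. A threshold of 0.01 gave 2 in all and 0 in vessels. Leaving out both samples numbered 2, chosen after the data were seen, gave 4 in all and 0 in vessels, with Foxc1 lower by a log2 difference of -1.13 (adjusted p = 0.0406). The mesenchyme score difference was 0.30 with the mean over genes, which gives Twist1 and Postn more weight than the median does, and 0.06 with the median over probe sets. For macrophages it was 0.02 without probe sets that may cross-hybridise, a change of sign. The range without 1 sample was 0.05 to 0.23 for mesenchyme, and those of the other scores were -0.20 to -0.10 for vessels, -0.12 to 0.05 for red cells and -0.11 to 0.04 for macrophages. The replicate numbers were not taken to pair the samples, since the labels do not say that they do. Deviations from the region means correlated at 0.0096, 0.1248 and 0.1135 between same-numbered samples 1, 2 and 3. Those of samples 2 and 3 were the highest of all pairs. Floor plate replicate 2 against ventral lateral replicate 3 was at -0.1493, and 3 against 2 at -0.0793. Floor plate replicate 1 correlated best with ventral lateral replicate 3 (0.0274). With the replicate block 3 member probe sets passed, those of Twist1, Postn and Tek. A filter on dim probe sets was not run because centred values hold no level, and for the same reason a gene at background cannot be told from a gene at equal levels.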
